A study of Mus musculus with 15 samples.

Results

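The 10 genes described here belong to the Notch pathway and to the switch between absorptive and secretory cell fate in the intestinal epithelium. They were chosen by name from the 56859 genes of the count table, and all 10 had enough counts to be tested. They are the receptors Notch1, Notch2 and Notch3, the ligands Dll1, Dll4, Jag1 and Jag2, the Notch target Hes1, and the secretory fate factors Atoh1 and Gfi1. The libraries were made from colon RNA of male C57BL/6J mice aged 6 to 10 weeks in a model of colitis-associated cancer. In it, the carcinogen azoxymethane (AOM) is followed by cycles of dextran sulfate sodium (DSS), a detergent-like agent that damages the colonic lining. The shared protocol gives AOM at 10 mg/kg on day 0 and 2.5% DSS in the drinking water on days 7 to 11, 28 to 32 and 49 to 53. The 5 groups had 3 libraries each. Mice of the APX3330 group received AOM, DSS and APX3330, which blocks the redox activity of APE1/Ref-1 and is named E3330 in the titles, at 25 mg/kg by daily injection on the DSS days. Mice of the saline D27, saline D48 and saline D100 groups received AOM, DSS and saline injections instead, and are labelled with days 27, 48 and 100. The Control group is labelled as wild type only. An age of 6 to 10 weeks is given for all groups, including saline D100, so it is not taken as the age at sampling.

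The labels limit what the groups can show. The protocol names AOM for all mice, so the treatment of the Control mice is not settled by the labels. The APX3330 libraries carry no day, so treatment and day cannot be told apart in any comparison of it with a saline group. Its titles differ from those of the saline D27 group only in the injected agent, whereas the titles of saline D48 and saline D100 name cycles 1 and 2, which do not match the DSS periods before those days. The labels do not say that libraries of a group came from separate animals, so p-values here refer to the spread among libraries, which may be technical. In whole tissue, fewer cells of a type and less RNA per cell cannot be told apart. Where the labelled days are days of sampling, age rises with them, so age and day cannot be told apart between the saline groups.

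Notch receptors are single-pass membrane proteins that are activated by Delta-like and Jagged ligands on neighbouring cells. Cleavage then releases the intracellular domain, which joins the DNA-binding protein Rbpj in the nucleus and switches on targets such as Hes1. In the intestinal crypt, Hes1 represses Atoh1, and cells with active Notch become absorptive. Cells that escape Notch signalling express Atoh1, enter the secretory lineage and become goblet, enteroendocrine or tuft cells or, in the small intestine, Paneth cells, and Gfi1 acts downstream of Atoh1 to favour the goblet and Paneth fates over the enteroendocrine fate.

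The promoters of 4 genes are shown because these genes carry the differences described below, Atoh1 and Gfi1 against Control and the ligands Jag1 and Dll1 with APX3330. RefSeq (GRCm38.p6) gave windows from 250 bases before to 50 bases after the start for 9 of the 10 genes, in 11 windows of 300 bases, and Hes1 was not matched. Both strands were searched for the Rbpj core TGGGAA, the E-boxes CAGCTG and CATCTG bound by basic helix-loop-helix factors, and the N-box CACNAG bound by Hes proteins. The matches are in capitals and read 5′ to 3′ on the gene's strand, where an N-box on the other strand reads CTNGTG.
Atoh1, chr6:64728875-64729174, plus strand, with an N-box on the other strand: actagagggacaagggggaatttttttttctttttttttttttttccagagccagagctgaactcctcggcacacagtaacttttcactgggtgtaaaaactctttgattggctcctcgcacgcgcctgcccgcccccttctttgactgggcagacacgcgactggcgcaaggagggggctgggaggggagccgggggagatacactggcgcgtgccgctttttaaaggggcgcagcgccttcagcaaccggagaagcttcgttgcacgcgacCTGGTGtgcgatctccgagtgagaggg
Gfi1, chr5:107725756-107726055, minus strand, first of 2 starts, with no match: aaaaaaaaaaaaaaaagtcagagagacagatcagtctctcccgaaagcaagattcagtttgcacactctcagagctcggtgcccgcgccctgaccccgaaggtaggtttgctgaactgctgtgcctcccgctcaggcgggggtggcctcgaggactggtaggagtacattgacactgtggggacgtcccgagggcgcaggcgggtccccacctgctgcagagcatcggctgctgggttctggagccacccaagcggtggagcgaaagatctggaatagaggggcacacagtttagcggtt
Jag1, chr2:137116471-137116770, minus strand, with an E-box: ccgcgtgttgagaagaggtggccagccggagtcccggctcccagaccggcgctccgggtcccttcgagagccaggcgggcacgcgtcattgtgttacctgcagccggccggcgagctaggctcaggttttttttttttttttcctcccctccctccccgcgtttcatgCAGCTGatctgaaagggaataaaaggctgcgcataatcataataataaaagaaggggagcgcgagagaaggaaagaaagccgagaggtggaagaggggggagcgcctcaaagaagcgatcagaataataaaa
Dll1, chr17:15376883-15377182, minus strand, start 2 of 2, with an E-box and then an N-box: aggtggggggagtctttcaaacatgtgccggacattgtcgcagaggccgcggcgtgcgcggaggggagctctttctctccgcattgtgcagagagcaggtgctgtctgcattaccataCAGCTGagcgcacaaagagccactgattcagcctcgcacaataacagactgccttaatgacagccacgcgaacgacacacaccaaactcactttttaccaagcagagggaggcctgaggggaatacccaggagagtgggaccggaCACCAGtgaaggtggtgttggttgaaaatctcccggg
Counted from the start, the E-box CAGCTG begins at position -82 in Jag1 and at -132 in Dll1, and no printed match overlaps another. Over 32851 promoter windows of the same length, TGGGAA was found in 25.6%, CAGCTG in 16.3%, CATCTG in 17.2% and CACNAG in 42.5%. None of the 11 windows held TGGGAA or CATCTG, while windows of Notch1, Notch2, Notch3, Dll1, Dll4 and Atoh1 held CACNAG. The Dll1 window at start 1 and the Gfi1 window at start 2, which are not printed, held no match. A match describes letters in the window and is not a measured binding site.

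Total counts per library ranged from 13548661 to 17919613, and each of the 10 genes had between 89 and 2192 counts in a library. The tissue label was checked against markers. All 12 goblet cell markers, all 11 absorptive colonocyte markers and all 10 pan-epithelial markers had counts in every library. Several libraries also held transcripts of other tissues. The summed level of 12 squamous epithelium markers was 1329.7 CPM (counts scaled to library size) in Control replicate 1, 620.02 CPM in Control replicate 3 and 924 CPM in saline D100 replicate 1, against 107 CPM in saline D48 replicate 2 and at most 9.33 CPM in the other libraries. The sum of 10 exocrine pancreas markers was 40069.8 CPM in saline D48 replicate 2 and 9691 CPM in saline D48 replicate 3, against at most 18.5 CPM elsewhere. In some libraries 6 of the 12 squamous and 9 of the 10 pancreatic markers had no count at all. Control replicates 1 and 3 also held skeletal muscle markers at 1981 and 885 CPM, against at most 38.9 CPM elsewhere. Results that rest on these libraries are given with and without them. Without the squamous libraries Control keeps only replicate 2, and without the pancreatic ones saline D48 keeps only replicate 1, and the lone library is then assumed to vary like the other groups.

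Markers of cell composition also differed between the groups. The summed goblet cell markers, led by Clca1 and the mucin Muc2, lay between 47746 and 78399 CPM with APX3330, 51702 and 64663 CPM at saline D27, 27214 and 50391 CPM at saline D48, 58222 and 82932 CPM at saline D100, and 10157 and 11138 CPM in Control. The summed absorptive markers lay between 3628 and 6991 CPM with APX3330, between 4333 and 6612 CPM over the 3 saline groups, and between 7101 and 8464 CPM in Control. The 8 tuft cell markers summed to between 96.7 and 109 CPM with APX3330, between 88.9 and 148 CPM over the saline groups, and between 67.9 and 79.6 CPM in Control, and of the 7 tested, 4 with APX3330, 5 at saline D27, 3 at saline D48 and 5 at saline D100 were called higher, and 1 lower in each group but saline D100. In sum the 10 enteroendocrine markers overlapped Control in all groups but saline D27, which was higher. The sums lay between 434 and 481 CPM with APX3330, between 399 and 591 CPM over the saline groups, and between 450.0 and 479 CPM in Control. By gene, 1 of the 10 with APX3330, 1 at saline D27, 4 at saline D48 and 1 at saline D100 were called higher. In each group but saline D27, 1 was called lower. Leukocyte markers summed to between 387 and 549 CPM with APX3330, between 546 and 1507 CPM over the saline groups, and between 262 and 324 CPM in Control. Pan-epithelial markers were closer, between 11325 and 14713 CPM over the APX3330 and saline groups and between 14219.5 and 15134 CPM in Control. Hoxd13, a homeobox gene of the distal hindgut that was chosen after its values were seen, lay between 46.5 and 137 CPM in the APX3330 and saline libraries and between 226 and 250.2 CPM in Control. The part that these differences have in the comparisons with Control was not tested.

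Against Control, the 4 AOM/DSS groups shared 1 pattern in these genes. Atoh1, Gfi1 and Jag1 were higher and Hes1 was lower in each of them, and in each case no library of the group overlapped the Control libraries. The share of all tested genes that likewise did not overlap was not computed. Lack of overlap is thus only a description, here and below. All 4 groups were set against the same 3 Control libraries, so these 4 comparisons are not independent of each other. With APX3330, 4 of the 10 genes were called higher (adjusted p below 0.05 in edgeR's quasi-likelihood test) against 7.16% of all 18038 tested genes, and 2 lower against 8.18%. At saline D27, 3 were called higher against 10.2% of all genes, and 2 lower against 9.36%. At saline D48, 4 were called higher against 14.3% of all genes, and 1 lower against 13%. At saline D100, 3 were called higher against 11.4% of all genes, and 1 lower against 10.5%. Over the 5 groups together, the F test called 7 of the 10 genes, all but Notch1, Dll4 and Jag2, against 37.3% of all genes.

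**Figure D1:**
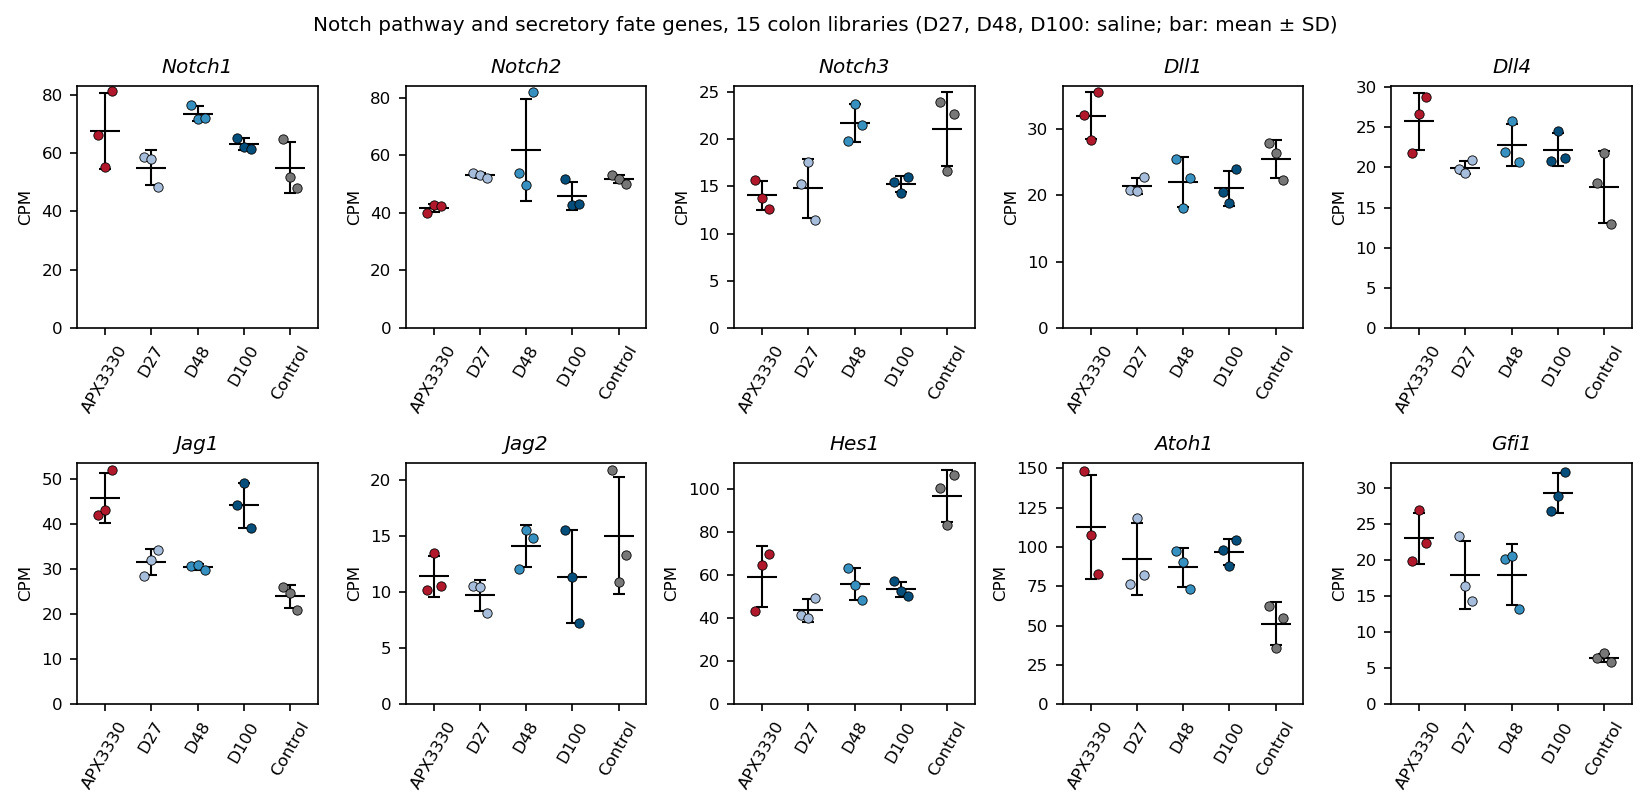
Level of each of the 10 genes in every library, in CPM, with 1 panel per gene and its own axis from 0. Points are libraries and bars are group means ± SD (n = 3), with groups from left to right APX3330, saline D27, saline D48, saline D100 and Control; Atoh1 and Gfi1 are lowest and Hes1 is highest in Control.

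Per kilobase of exon, Atoh1 was the most abundant of the 10 genes, with a mean of 41.5 CPM per kilobase over the 15 libraries, followed by Hes1 with 30.3. The ligands Jag1, Dll1 and Dll4 and the factor Gfi1 averaged between 5.63 and 6.05 CPM per kilobase, but Gfi1 ranged with the group, at 7.25 with APX3330, 5.66 at saline D27, 5.66 at saline D48, 9.21 at saline D100 and 2.03 in Control, where it was the lowest of the 10. The receptors followed with 4.71 for Notch2, 4.42 for Notch1 and 2.15 for Notch3, and Jag2 was lowest over all libraries with 1.77 CPM per kilobase, at 1.64 with APX3330, 1.40 at saline D27, 2.03 at saline D48, 1.64 at saline D100 and 2.16 in Control. The order of Atoh1 and Hes1 depended on the group. Atoh1 stood above Hes1 with 53.2 against 29.1 CPM per kilobase with APX3330, 43.5 against 21.4 at saline D27, 41.1 against 27.4 at saline D48 and 45.5 against 26.2 at saline D100, whereas in Control Atoh1 stood below Hes1 with 24.1 against 47.5.

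Among the receptors, Notch1 and Notch2, which act in epithelial progenitors, had only 1 call against Control between them, and Notch3, a receptor of pericytes and vascular smooth muscle, was lower with APX3330 and at saline D27. Notch3 (chr17:32120820-32166852, GRCm38) had 15.7, 13.8 and 12.7 CPM with APX3330, 15.3, 17.6 and 11.5 CPM at saline D27, 19.8, 23.8 and 21.5 CPM at saline D48, 15.5, 14.4 and 16.0 CPM at saline D100, and 23.9, 16.7 and 22.7 CPM in Control. All APX3330 and saline D100 libraries were below the lowest Control library, and saline D27 overlapped Control through replicate 2. The log2 fold change against Control was -0.59 (SE 0.170, adjusted p 0.0298) with APX3330 and -0.51 (SE 0.169, adjusted p 0.0446) at saline D27. At saline D100 it was -0.47 and did not pass (adjusted p 0.0615), but passed without Control replicate 2 (adjusted p 0.0234). The APX3330 call was lost without APX3330 replicate 2 or 3 or Control replicate 1 or 3 (adjusted p from 0.0836 to 0.132), and the saline D27 call without saline D27 replicate 1 or 3 or Control replicate 1 or 3 (adjusted p from 0.0922 to 0.172). Without the squamous libraries the fold itself was smaller, -0.25 with APX3330 (adjusted p 0.659) and -0.19 at saline D27 (0.706), and neither passed.

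The direction for Notch3 depended on what it was set against. Per 1000 CPM of 6 pericyte markers Notch3 averaged 42.7 ± 3.01 with APX3330, 37.7 ± 9.43 at saline D27, 61.7 ± 6.29 at saline D48, 40.7 ± 6.5 at saline D100 and 57.6 ± 8.63 in Control (SD, n = 3 each), and every APX3330, saline D27 and saline D100 library was below Control. Relative to 1000 CPM of 10 smooth muscle markers, which summed to between 4809.7 and 6349 CPM with APX3330, between 5558 and 10923 CPM over the saline groups, and between 11267 and 11625 CPM in Control, it averaged 2.43 ± 0.22 with APX3330, 1.62 ± 0.497 at saline D27, 3.58 ± 0.515 at saline D48, 2.33 ± 0.422 at saline D100 and 1.85 ± 0.323 in Control (SD, n = 3 each). On that scale the APX3330, saline D48 and saline D100 libraries were all above Control. For each of these comparisons without overlap the exact two-sided permutation p was 0.1, the smallest that 3 libraries against 3 allow.

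Notch1 (chr2:26457903-26516663) had 66.3, 55.2 and 81.3 CPM with APX3330, 58.8, 58.1 and 48.3 CPM at saline D27, 76.7, 71.8 and 72.2 CPM at saline D48, 65.4, 62.2 and 61.5 CPM at saline D100, and 65.0, 51.9 and 48.1 CPM in Control. The saline D48 libraries lay above all Control and all saline D27 libraries. Its log2 fold change at saline D48 against Control was 0.42 (SE 0.133, adjusted p 0.0289), a call that was lost without any saline D48 library or without Control replicate 2 or 3 (adjusted p from 0.0576 to 0.123), and without the squamous libraries (0.49, adjusted p 0.137) or the pancreatic ones (0.48, adjusted p 0.149), where the fold was not smaller. Notch2 (chr3:98013527-98150361) had 40.1, 42.7 and 42.3 CPM with APX3330, 53.9, 53.0 and 52.1 CPM at saline D27, 53.8, 49.5 and 81.9 CPM at saline D48, 51.6, 42.8 and 43.0 CPM at saline D100, and 52.9, 51.9 and 50.1 CPM in Control. The APX3330 libraries were below every saline D27, saline D48, saline D100 and Control library, and saline D48 replicate 3 stood above all others. Against Control the difference with APX3330 was -0.31 on the log2 scale and did not pass (adjusted p 0.168).

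Of the 4 ligands, Jag1 was the only one called higher than Control in all 4 AOM/DSS groups. Jag1 (chr2:137081456-137116644), a Jagged ligand made by epithelial, endothelial and smooth muscle cells, had 42.2, 43.2 and 52.2 CPM with APX3330, 28.5, 32.1 and 34.2 CPM at saline D27, 30.8, 31.0 and 29.8 CPM at saline D48, 44.3, 49.2 and 39.1 CPM at saline D100, and 26.1, 24.8 and 21.0 CPM in Control. The libraries fell into 3 tiers that did not overlap: APX3330 with saline D100, saline D27 with saline D48, and Control. The log2 fold change against Control was 0.94 (SE 0.122, adjusted p 0.000223) with APX3330, 0.40 (SE 0.122, adjusted p 0.0322) at saline D27, 0.35 (SE 0.122, adjusted p 0.0446) at saline D48 and 0.88 (SE 0.122, adjusted p 0.000150) at saline D100. The calls with APX3330 and at saline D100 held under every alternative. The saline D27 call was lost without saline D27 replicate 2 or 3 or Control replicate 2 or 3 (adjusted p from 0.0567 to 0.139), the saline D48 call without any saline D48 library or Control replicate 2 or 3 (adjusted p from 0.0697 to 0.176), and both without the squamous libraries (0.33 with adjusted p 0.349 at saline D27, 0.28 with 0.374 at saline D48). Without the pancreatic libraries the saline D48 difference was 0.37 and did not pass (adjusted p 0.248).

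Jag1 was also higher in all 4 groups than in Control relative to epithelial and to smooth muscle markers, but not in all 4 relative to endothelial markers. Per 1000 CPM of pan-epithelial markers it averaged 3.62 ± 0.191 with APX3330, 2.32 ± 0.331 at saline D27, 2.24 ± 0.178 at saline D48, 3.46 ± 0.531 at saline D100 and 1.63 ± 0.204 in Control (SD, n = 3 each), with no overlap between any of the 4 groups and Control (exact permutation p 0.1). Relative to 1000 CPM of 12 endothelial markers it averaged 154 ± 37.7 with APX3330, 115 ± 17.2 at saline D27, 80.3 ± 6.47 at saline D48, 151 ± 6.0 at saline D100 and 82.9 ± 13.3 in Control (SD, n = 3 each). There the saline D48 libraries overlapped Control, in a group whose endothelial markers summed to between 353 and 399 CPM against 258 to 313 CPM in Control. Per 1000 CPM of smooth muscle markers, whose sums were below Control in all 4 groups, Jag1 averaged 8.12 ± 2.365 with APX3330 and 3.39 ± 0.225 at saline D27. It averaged 5.03 ± 0.352 at saline D48, 6.66 ± 0.666 at saline D100 and 2.10 ± 0.206 in Control (SD, n = 3 each). None of the 4 groups overlapped Control on that scale (exact permutation p 0.1).

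Dll1 and Dll4 are the Delta-like ligands of the mouse crypt, where they act together to keep stem cells from differentiating. Dll1 (chr17:15367354-15376872) had 32.2, 28.4 and 35.6 CPM with APX3330, 20.8, 20.7 and 22.8 CPM at saline D27, 25.5, 18.1 and 22.6 CPM at saline D48, 20.6, 18.8 and 23.9 CPM at saline D100, and 27.9, 26.4 and 22.4 CPM in Control. The APX3330 libraries were the 3 highest of the 15. Against Control the log2 fold change with APX3330 was 0.33 and did not pass (adjusted p 0.137). Dll4 (chr2:119325784-119335962) had 21.8, 26.7 and 28.8 CPM with APX3330, 19.8, 19.3 and 20.9 CPM at saline D27, 22.0, 25.8 and 20.7 CPM at saline D48, 20.8, 24.6 and 21.2 CPM at saline D100, and 18.0, 21.8 and 12.9 CPM in Control. It was higher with APX3330 than in Control by 0.55 on the log2 scale (SE 0.168, adjusted p 0.0373), although the groups met at 21.8 CPM. Per 1000 CPM of endothelial markers Dll4 averaged 86.9 ± 24.4 with APX3330 and 61.6 ± 21.2 in Control (SD, n = 3 each). On that scale all 4 AOM/DSS groups overlapped Control, with an exact permutation p of 0.2 for APX3330. The call was lost without APX3330 replicate 2 or 3 or Control replicate 1 or 3 (adjusted p from 0.0875 to 0.144) and without the squamous libraries, where the fold was 0.23 (0.628).

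Dll4 shares 214 exon bases with Gm14207 on the opposite strand, which had 1090 counts over the 15 libraries against 4933 for Dll4, and reads of these genes cannot be told apart if strand was not used in counting. At saline D48 the Dll4 difference from Control of 0.38 did not pass (adjusted p 0.111), but passed without Control replicate 2 (adjusted p 0.0294). Jag2 (chr12:112907819-112929776), the other Jagged ligand, had, relative to its mean, the widest spread of the 10 genes within Control. It had 10.2, 13.5 and 10.6 CPM with APX3330, 10.6, 10.5 and 8.12 CPM at saline D27, 12.0, 15.5 and 14.9 CPM at saline D48, 15.5, 11.3 and 7.3 CPM at saline D100, and 20.9, 10.9 and 13.3 CPM in Control. Its largest difference from Control, -0.63 on the log2 scale at saline D27, did not pass (adjusted p 0.110).

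Hes1 (chr16:30064384-30067796), the Notch target that represses Atoh1, was lower in all 4 AOM/DSS groups than in Control. It had 43.3, 64.7 and 70.0 CPM with APX3330, 41.3, 40.0 and 49.6 CPM at saline D27, 63.2, 55.6 and 48.5 CPM at saline D48, 57.1, 52.7 and 50.3 CPM at saline D100, and 100.5, 83.3 and 107 CPM in Control. No library of the 4 groups reached the lowest Control library. The log2 fold change against Control was -0.71 (SE 0.156, adjusted p 0.00724) with APX3330, -1.15 (SE 0.158, adjusted p 0.000311) at saline D27, -0.80 (SE 0.156, adjusted p 0.00169) at saline D48 and -0.86 (SE 0.157, adjusted p 0.00124) at saline D100. All 4 calls held when any 1 library of the compared groups was left out. Without the squamous libraries the fold was -0.50 with APX3330 (adjusted p 0.308), -0.95 at saline D27 (0.0479), -0.60 at saline D48 (0.126) and -0.71 at saline D100 (0.119), so that only the saline D27 call held. Without the pancreatic libraries the saline D48 fold was -0.61 and did not pass (adjusted p 0.111).

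Scaled to 1000 CPM of pan-epithelial markers, Hes1 averaged 4.65 ± 0.715 with APX3330, 3.21 ± 0.584 at saline D27, 4.07 ± 0.199 at saline D48, 4.17 ± 0.297 at saline D100 and 6.59 ± 0.944 in Control (SD, n = 3 each), with all 4 groups below Control (exact permutation p 0.1). Scaled to 1000 CPM of absorptive colonocyte markers it averaged 11.4 ± 1.18 with APX3330, 7.02 ± 1.04 at saline D27, 11.6 ± 1.09 at saline D48, 10.0 ± 1.25 at saline D100 and 12.4 ± 2.26 in Control (SD, n = 3 each). On that scale only the saline D27 libraries were all below Control. The other 3 groups overlapped it.

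The 2 secretory fate factors were higher in all 4 AOM/DSS groups than in Control. Atoh1 (chr6:64729125-64731245), the factor that commits crypt cells to the secretory lineage, had 148, 107 and 82.7 CPM with APX3330, 76.4, 118 and 82.1 CPM at saline D27, 97.5, 90.8 and 73.4 CPM at saline D48, 97.8, 87.8 and 104 CPM at saline D100, and 62.7, 36.0 and 54.8 CPM in Control. Every library of the 4 groups was above the highest Control library, and the 4 groups overlapped each other. The log2 fold change against Control was 1.14 (SE 0.223, adjusted p 0.00340) with APX3330, 0.85 (SE 0.223, adjusted p 0.0151) at saline D27, 0.77 (SE 0.223, adjusted p 0.0181) at saline D48 and 0.92 (SE 0.223, adjusted p 0.00838) at saline D100. The calls with APX3330 and at saline D100 held under every alternative. The saline D27 call was lost without saline D27 replicate 2 (adjusted p 0.0963) or Control replicate 2 (0.0631), and the saline D48 call without saline D48 replicate 1 (0.0666), Control replicate 2 (0.0789) or the pancreatic libraries (0.93, adjusted p 0.0703). All 4 held without the squamous libraries (adjusted p from 0.0264 to 0.0496), where the folds were larger, 1.64 with APX3330, 1.34 at saline D27, 1.26 at saline D48 and 1.40 at saline D100.

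Gfi1 (chr5:107716657-107726036), a zinc-finger repressor downstream of Atoh1, showed the largest change of the 10 genes. It had 19.9, 26.9 and 22.4 CPM with APX3330, 23.4, 16.4 and 14.3 CPM at saline D27, 20.2, 20.7 and 13.2 CPM at saline D48, 26.8, 29.0 and 32.3 CPM at saline D100, and 6.37, 7.08 and 5.92 CPM in Control. The lowest library of the 4 groups stood well above the highest Control library, and saline D100 was highest, with its lowest library just under the highest APX3330 library. The log2 fold change against Control was 1.84 (SE 0.209, adjusted p 9.0262e-05) with APX3330, 1.48 (SE 0.208, adjusted p 0.000369) at saline D27, 1.48 (SE 0.209, adjusted p 0.000181) at saline D48 and 2.18 (SE 0.210, adjusted p 8.0611e-06) at saline D100, where Gfi1 was 4.55-fold higher. The calls with APX3330, at saline D48 and at saline D100 held under every alternative, and the saline D27 call was lost without the squamous libraries (1.33, adjusted p 0.0591).

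**Figure D2:**
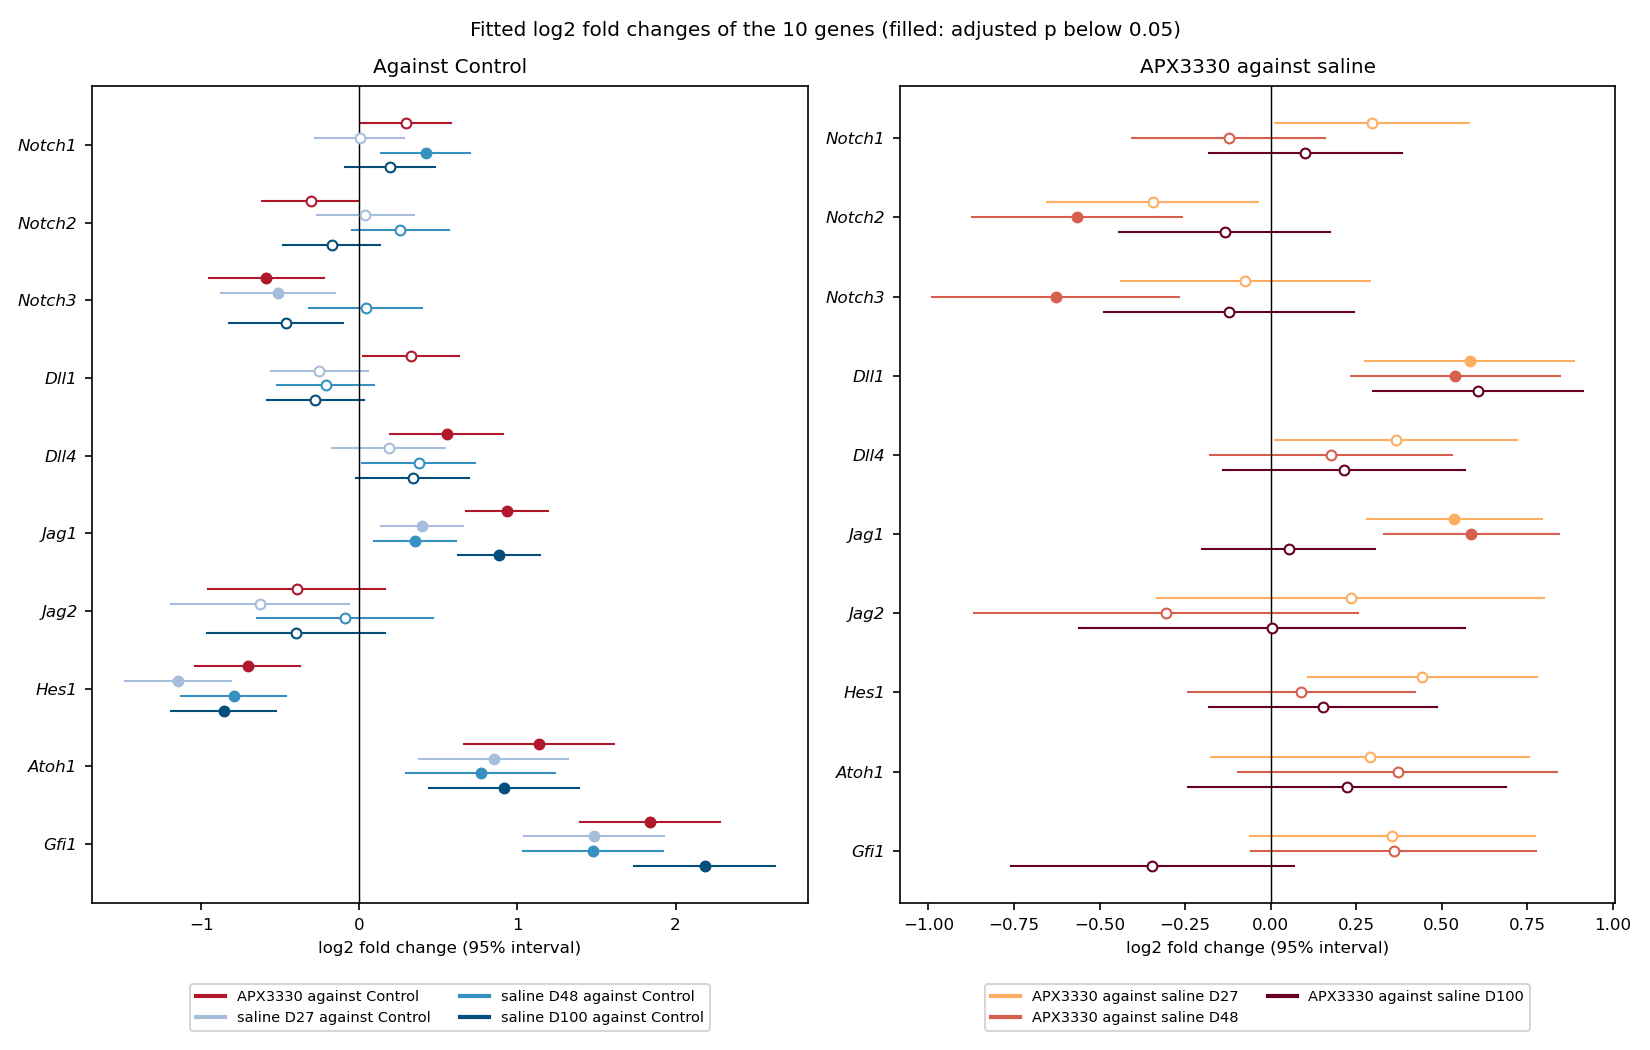
Fitted log2 fold changes of the 10 genes with 95% intervals, against Control (left) and for APX3330 against each saline group (right), where filled points have an adjusted p below 0.05. Against Control the intervals of Gfi1, Atoh1 and Jag1 lie above 0 and those of Hes1 below 0 in all 4 groups, and on the right filled points are seen for Notch2, Notch3, Dll1 and Jag1.

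Whether the secretory factors moved beyond epithelial markers depended on the markers chosen. No ratio of these factors to leukocyte markers was taken. Per 1000 CPM of pan-epithelial markers Atoh1 averaged 9.16 ± 3.62 with APX3330, 6.73 ± 1.47 at saline D27, 6.35 ± 0.311 at saline D48, 7.53 ± 0.369 at saline D100 and 3.5 ± 1.03 in Control (SD, n = 3 each), with all 4 groups above Control. Against goblet cell markers the order was the opposite. Per 1000 CPM of these, Atoh1 averaged 1.75 ± 0.131 with APX3330, 1.6 ± 0.232 at saline D27, 2.31 ± 0.46 at saline D48, 1.37 ± 0.273 at saline D100 and 4.8 ± 1.23 in Control (SD, n = 3 each), with all 4 groups below Control. The summed goblet markers thus differed from Control by more than Atoh1 did.

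Gfi1 also lay above Control relative to pan-epithelial markers and below it relative to the summed goblet markers. Per 1000 CPM of pan-epithelial markers it averaged 1.83 ± 0.263 with APX3330, 1.31 ± 0.303 at saline D27, 1.31 ± 0.2 at saline D48, 2.29 ± 0.213 at saline D100 and 0.439 ± 0.0344 in Control (SD, n = 3 each), with all 4 groups above Control. Relative to 1000 CPM of goblet cell markers it averaged 0.378 ± 0.111 with APX3330, 0.316 ± 0.0891 at saline D27, 0.466 ± 0.0496 at saline D48, 0.412 ± 0.0425 at saline D100 and 0.607 ± 0.0515 in Control (SD, n = 3 each), with all 4 groups below Control. The exact two-sided permutation p of each of these comparisons of Atoh1 and Gfi1 with Control was 0.1, the smallest possible. The goblet sum is led by its most abundant genes, Clca1 and Muc2. Taken gene by gene, the median log2 fold change of the 12 goblet markers against Control was 1.24 with APX3330, 1.18 at saline D27, 1.07 at saline D48 and 1.47 at saline D100. In all 4 groups the fold change of Atoh1 was below this median and that of Gfi1 above it, so for Gfi1 the direction depended on how the goblet markers were summarised.

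The balance of Atoh1 to its repressor Hes1, taken per kilobase within each library, was 3.28, 1.60 and 1.13 with APX3330, 1.78, 2.84 and 1.59 at saline D27, 1.48, 1.57 and 1.45 at saline D48, 1.65, 1.60 and 1.99 at saline D100, and 0.599, 0.415 and 0.494 in Control. It was above 1 in all 12 APX3330 and saline libraries and below 1 in all 3 Control libraries. The values with APX3330 spread the most, and replicate 1 of that group combined the highest Atoh1 with the lowest Hes1 of its group. Since both genes had been seen to differ, this ratio is a description and was not tested.

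**Figure D3:**
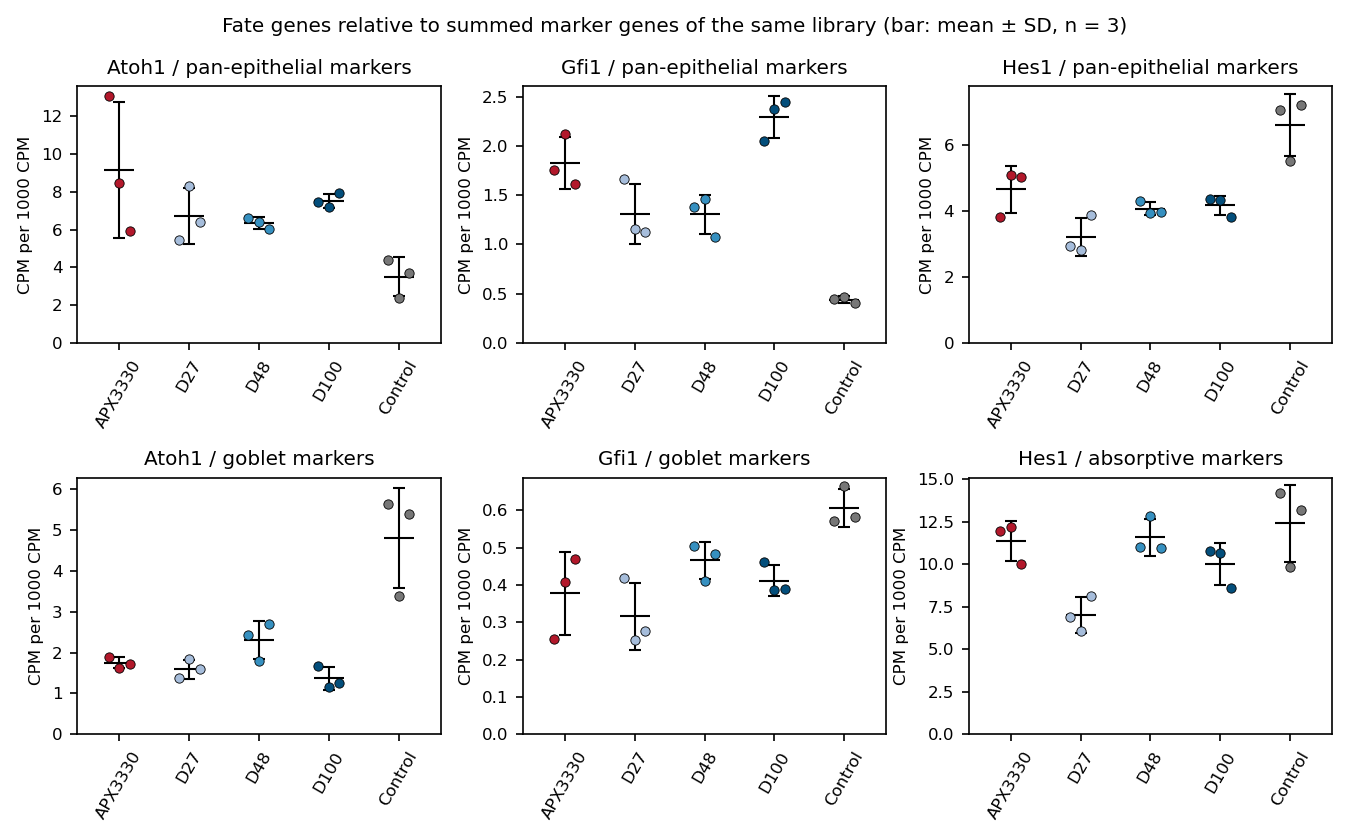
CPM of Atoh1, Gfi1 and Hes1 per 1000 CPM of summed cell type markers of the same library, with axes from 0. Points are libraries and bars are group means ± SD (n = 3), from left to right APX3330, saline D27, saline D48, saline D100 and Control. Atoh1 lies above Control in all 4 groups against pan-epithelial markers (3.5 in Control) and below Control in all 4 against goblet cell markers (4.8 in Control).

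Between APX3330 and the saline groups, the ligands Dll1 and Jag1 were higher against saline D27 and saline D48, and the receptors Notch2 and Notch3 were lower against saline D48. Against saline D27, 2 of the 10 genes were called, both higher, against 4.71% of all tested genes higher and 4.37% lower. Against saline D48, 2 were called higher against 9.41% and 2 lower against 10.3%. Against saline D100, 0 were called in either direction, against 0.305% of all genes higher and 0.2% lower, while 1 gene, Dll1, had an unadjusted p below 0.05 in edgeR, and DESeq2 also called only Dll1 (adjusted p 0.0111). The share of all genes at an unadjusted p below 0.05 was not taken.

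Dll1 averaged 32.1 ± 3.59 CPM with APX3330, 21.4 ± 1.15 CPM at saline D27, 22.1 ± 3.74 CPM at saline D48 and 21.1 ± 2.61 CPM at saline D100 (SD, n = 3 each), and in each comparison all APX3330 libraries were higher. The log2 fold change with APX3330 was 0.58 against saline D27 (SE 0.144, adjusted p 0.0237), 0.54 against saline D48 (SE 0.144, adjusted p 0.0168) and 0.61 against saline D100 (95% interval 0.299 to 0.912, adjusted p 0.0737). The 3 estimates were close in size, and the last did not pass among all genes. The call against saline D27 was lost without saline D27 replicate 1 or 2 or APX3330 replicate 3 (adjusted p from 0.0863 to 0.0897). The call against saline D48 was lost without saline D48 replicate 2 (adjusted p 0.0790) or APX3330 replicate 3 (0.0673), and without the pancreatic libraries (0.33, adjusted p 0.374). Per 1000 CPM of pan-epithelial markers Dll1 averaged 2.55 ± 0.304 with APX3330, 1.57 ± 0.182 at saline D27, 1.62 ± 0.305 at saline D48, 1.64 ± 0.153 at saline D100 and 1.74 ± 0.223 in Control (SD, n = 3 each), with the APX3330 libraries above each other group (exact permutation p 0.1).

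Jag1 with APX3330 was higher than at saline D27 by 0.54 on the log2 scale (SE 0.120, adjusted p 0.0163) and than at saline D48 by 0.59 (SE 0.120, adjusted p 0.00383), and it overlapped saline D100. The call against saline D27 was lost without saline D27 replicate 1 or 2 or APX3330 replicate 3 (adjusted p from 0.0568 to 0.0773). The call against saline D48 held without any 1 library and was lost without the pancreatic libraries (0.57, adjusted p 0.1002). Notch2 was lower with APX3330 than at saline D48 by -0.57 on the log2 scale (SE 0.144, adjusted p 0.0134), with saline D48 replicate 3 far above the others. Without that replicate the difference was -0.31 (adjusted p 0.0596), and without both pancreatic libraries it was -0.37 (adjusted p 0.132). Notch3 was lower with APX3330 than at saline D48 by -0.63 (SE 0.170, adjusted p 0.0180), which was lost without saline D48 replicate 2, APX3330 replicate 2 or APX3330 replicate 3 (adjusted p from 0.0554 to 0.0686) and without the pancreatic libraries (-0.49, adjusted p 0.290).

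Hes1, Atoh1 and Gfi1 were not called between APX3330 and any saline group. The Atoh1 difference was 0.29 against saline D27 (95% interval -0.175 to 0.755, adjusted p 0.420), 0.37 against saline D48 (-0.0949 to 0.837, adjusted p 0.257) and 0.22 against saline D100 (-0.242 to 0.689, adjusted p 0.721) on the log2 scale. The Gfi1 difference was 0.36 against saline D27 (adjusted p 0.259), 0.36 against saline D48 (adjusted p 0.217) and -0.35 against saline D100 (adjusted p 0.476). The Hes1 difference was 0.44 against saline D27 (adjusted p 0.0868), 0.09 against saline D48 (adjusted p 0.737) and 0.15 against saline D100 (adjusted p 0.739). Without APX3330 replicate 1, whose 43.3 CPM was the lowest of its group, Hes1 passed against saline D27 with 0.63 (adjusted p 0.0133). The summed goblet markers with APX3330 overlapped those of each saline group. Leukocyte markers summed to 387 to 549 CPM with APX3330, below the 611 to 813 CPM at saline D27 and the 741 to 1507 CPM at saline D48. At saline D100 they summed to 546 to 710 CPM, which overlapped APX3330. The part of these differences in the comparisons with the saline groups was not tested.

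Along the saline days, Jag1 and Gfi1 were higher at day 100. At saline D48 against saline D27, 0 of the 10 genes were called in either direction, against 0.854% of all genes higher and 0.499% lower. Unadjusted, 3 genes (Notch1, Notch3 and Hes1) had a p below 0.05 in edgeR, with no share of all genes taken at that threshold. DESeq2 called Notch3 alone (adjusted p 0.0480). Notch1 and Notch3 were higher in every saline D48 library than in every saline D27 library, by 0.42 (adjusted p 0.138) and 0.55 (adjusted p 0.122) on the log2 scale in edgeR. At saline D100 against saline D27, Jag1 was called, against 1.63% of all genes higher and 1.45% lower. At saline D100 against saline D48, Jag1 and Gfi1 were called, both higher, against 7.2% of all genes higher and 6.4% lower.

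Jag1 averaged 31.6 ± 2.87 CPM at saline D27, 30.5 ± 0.651 CPM at saline D48 and 44.2 ± 5.02 CPM at saline D100 (SD, n = 3 each). It was higher at saline D100 than at saline D27 by 0.48 on the log2 scale (SE 0.120, adjusted p 0.0413) and than at saline D48 by 0.53 (SE 0.121, adjusted p 0.00935), with no overlap. The first call was lost without saline D27 replicate 1 or 2 or any saline D100 library (adjusted p from 0.0737 to 0.173) and without the squamous libraries (0.48, adjusted p 0.135). The call against saline D48 held without any 1 library and without the squamous libraries (adjusted p 0.0375), and was lost without the pancreatic ones (0.52, adjusted p 0.150). Gfi1 averaged 18.0 ± 4.74 CPM at saline D27, 18.0 ± 4.2 CPM at saline D48 and 29.4 ± 2.74 CPM at saline D100 (SD, n = 3 each). It was higher at saline D100 than at saline D48 by 0.71 (SE 0.196, adjusted p 0.0268), and the difference of 0.70 from saline D27 did not pass (adjusted p 0.0642), although no libraries overlapped in either comparison. The Gfi1 call was lost without saline D48 replicate 3 or saline D100 replicate 2 or 3 (adjusted p from 0.0669 to 0.108), without the squamous libraries (0.77, adjusted p 0.0635) and without the pancreatic ones (0.53, adjusted p 0.291). Notch2 at saline D100 was lower than at saline D48 by -0.43, which did not pass (adjusted p 0.0573), but passed without saline D48 replicate 2 (adjusted p 0.0193).

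Some other genes of secretory fate were higher than in Control together with Atoh1 and Gfi1, but most of those listed were not called higher. Of 24 further regulators of secretory or epithelial fate, all tested, 7 were called higher and 1 lower with APX3330 (29.2% and 4.17%, against 7.16% and 8.18% of all genes). At saline D27 7 were called higher and 1 lower (29.2% and 4.17%, against 10.2% and 9.36%), at saline D48 8 and 1 (33.3% and 4.17%, against 14.3% and 13%), and at saline D100 6 and 2 (25% and 8.33%, against 11.4% and 10.5%). The median log2 fold change of the 24 was 0.43 with APX3330, -0.11 at saline D27, 0.06 at saline D48 and 0.27 at saline D100, beside medians over all genes of at most 0.0153. The summed level of the 24 averaged 3420 CPM with APX3330 and 3316 CPM in Control. It averaged 3101 CPM at saline D27, 3183 CPM at saline D48 and 3273 CPM at saline D100. Unadjusted, 12 of the 24 had a p below 0.05 with APX3330, 10 at saline D27, 10 at saline D48 and 9 at saline D100. The share of all genes at that threshold was not taken, so these unadjusted counts have no background beside them. Without the squamous libraries, where Control keeps 1 library, fewer of the 24 were called higher in each group but saline D100. Fewer of all genes were then called in all 4 groups. The list includes factors of enteroendocrine, tuft and absorptive cells. Those called higher in all 4 groups were Spdef, Bhlha15, Cbfa2t3, Foxa3, Creb3l4 and Xbp1. The first 3 were named because they had the smallest F test p of the list over the 5 groups. Their folds and adjusted p given below thus follow a selection on these same libraries. The last 3 were named after their values were seen.

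Spdef, an ETS factor that drives goblet cell maturation, averaged 100.3 ± 24.3 CPM with APX3330, 96.3 ± 9.59 CPM at saline D27, 85.2 ± 15.6 CPM at saline D48, 119.7 ± 15.6 CPM at saline D100 and 26.9 ± 2.84 CPM in Control (SD, n = 3 each). Its log2 fold change against Control was 1.90 (adjusted p 1.5942e-05) with APX3330, 1.84 (adjusted p 2.5518e-05) at saline D27, 1.66 (adjusted p 2.3441e-05) at saline D48 and 2.15 (adjusted p 2.7627e-06) at saline D100. Bhlha15, which builds the secretory machinery of exocrine cells, lay further from Control, with 20.6 ± 1.59 CPM with APX3330, 21.3 ± 6.4 CPM at saline D27, 21.7 ± 11.7 CPM at saline D48, 29.3 ± 5.04 CPM at saline D100 and 2.68 ± 0.362 CPM in Control (SD, n = 3 each). Its log2 fold changes were 2.94 with APX3330, 2.98 at saline D27, 3.01 at saline D48 and 3.44 at saline D100 (adjusted p at most 0.000101). Bhlha15 is also expressed in the exocrine pancreas. Without the pancreatic libraries its fold at saline D48 was 2.17 (adjusted p 0.000575), and it was then called higher at saline D100 than at saline D48 by 1.27 (adjusted p 0.0430), against 0.43 (adjusted p 0.350) with all libraries. The Spdef fold at saline D48 was 1.92 without them. Cbfa2t3, a corepressor, rose by 1.20 with APX3330, 0.82 at saline D27, 0.89 at saline D48 and 1.10 at saline D100 (adjusted p at most 0.00153), and the saline D27 call was lost without the squamous libraries (0.73, adjusted p 0.0853).

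The other genes of the Notch pathway were called in both directions. Those named below were picked by the 3 smallest F test p of each list over the 5 groups. Their folds, adjusted p and checks under alternatives thus follow a selection on these same libraries. Over the 5 groups together the F test called 8 of 11 tested ligands, receptors and trafficking factors, 5 of 15 genes of glycosylation and cleavage, and 9 of 17 tested genes of the nuclear complex, against 12 of the 24 secretory regulators and 37.3% of all genes, and no test compared the lists. Among 13 further ligands, receptors and trafficking factors, of which 11 were tested, 3 were called with APX3330 against Control, all lower, a share of 27.3% against 8.18% of all genes. In this list 1 was called higher and 2 lower at saline D27 (9.09% and 18.2% against 10.2% and 9.36% of all genes), 3 and 2 at saline D48 (27.3% and 18.2% against 14.3% and 13%), and 2 and 2 at saline D100 (18.2% each against 11.4% and 10.5%). Among 15 genes of glycosylation and cleavage, 1 was called with APX3330, higher (6.67% against 7.16%), 1 higher and 1 lower at saline D27 (6.67% each against 10.2% and 9.36%), 4 at saline D48, all higher (26.7% against 14.3%), and 2 higher and 1 lower at saline D100 (13.3% and 6.67% against 11.4% and 10.5%). Among 19 genes of the nuclear complex and its targets, of which 17 were tested, 1 was called higher and 2 lower at saline D27 (5.88% and 11.8% against 10.2% and 9.36%), 4 higher and 3 lower at saline D48 (23.5% and 17.6% against 14.3% and 13%), and 2 at saline D100, both lower (11.8% against 10.5%). With so few genes in each list, 1 call moves these shares by several points. With APX3330 edgeR and DESeq2 each called 0 genes of the nuclear list against Control, and 5 had an unadjusted p below 0.05 in edgeR. For that unadjusted count no share of all genes was taken. Without the squamous libraries, where Control keeps 1 library, these 3 lists together had fewer calls in each of the 4 comparisons with Control. The calls over all genes also became fewer in each.

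Adam17, a metalloprotease that sheds membrane proteins, was called higher than in Control by 0.43 with APX3330 (adjusted p 0.0132), 0.33 at saline D27 (0.0406), 0.52 at saline D48 (0.00206) and 0.51 at saline D100 (0.00293), and all 4 calls were lost without the squamous libraries (folds 0.28 with APX3330, 0.17 at saline D27, 0.36 at saline D48 and 0.37 at saline D100, adjusted p up to 0.607). The calls with APX3330 and at saline D27 were also lost without Control replicate 1 or 3, that at saline D27 without saline D27 replicate 1 or 2, and that at saline D48 without the pancreatic libraries. Numbl, a Numb-family adaptor, was lower than in Control by -0.78 with APX3330 (adjusted p 0.00969), -0.55 at saline D27 (0.0423) and -0.88 at saline D100 (0.00295), calls that were lost without those libraries although the folds were close, -0.67 with APX3330, -0.45 at saline D27 and -0.79 at saline D100 (adjusted p up to 0.390). The Numbl call with APX3330 was also lost without Control replicate 1, and that at saline D27 without any 1 of the 6 libraries compared. Mib1, the ubiquitin ligase that ligands need for endocytosis, was higher at saline D100 by 0.49 (adjusted p 0.00167), and without the squamous libraries the fold was 0.41 and did not pass (0.175). Pofut1, the enzyme that adds O-fucose to Notch receptors, was lower by -0.40 at saline D27 (adjusted p 0.0116) and by -0.38 at saline D100 (0.0144). The Pofut1 call at saline D27 was lost without saline D27 replicate 2 or without the squamous libraries (-0.43, up to 0.103), and that at saline D100 without saline D100 replicate 2 or 3 (up to 0.0778).

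**Figure D4:**
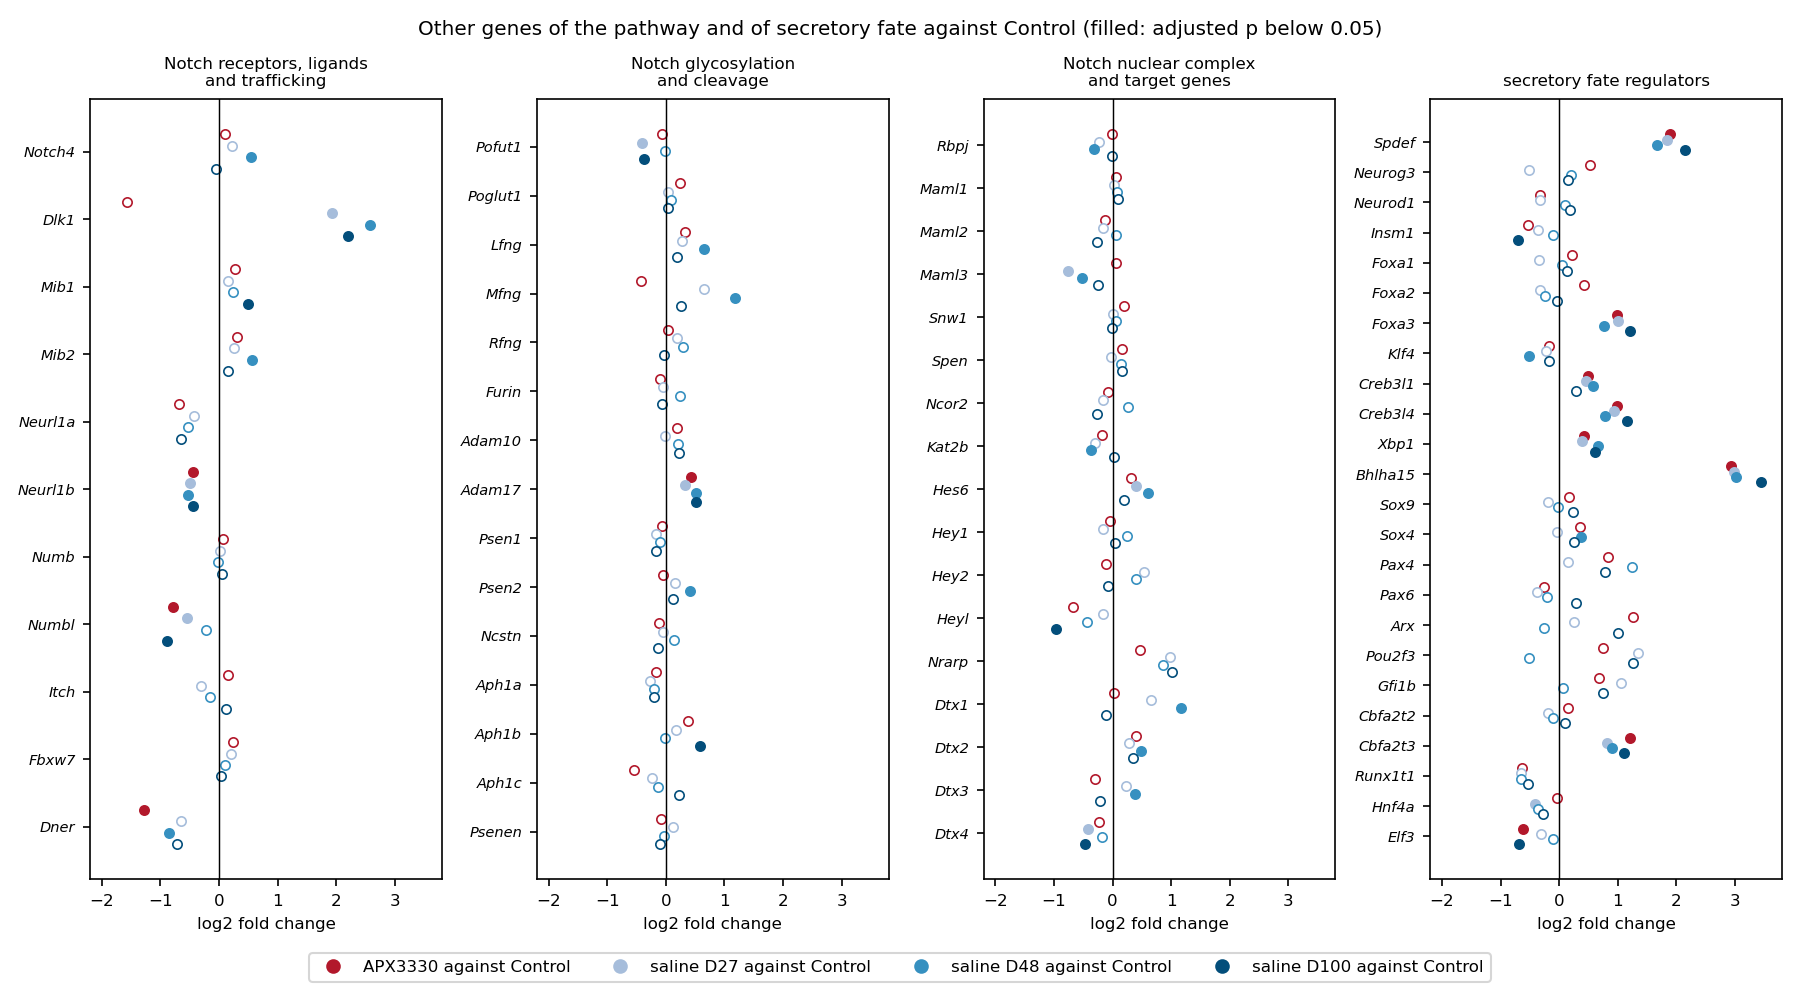
Log2 fold changes against Control of the other genes of the 4 lists, with 1 panel per list and 1 row per gene, and filled points where the adjusted p was below 0.05. Filled points to the right in all 4 groups are seen for Spdef, Bhlha15, Cbfa2t3, Foxa3, Creb3l4, Xbp1 and Adam17.

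Of the pathway genes picked by their F test p over these same libraries, Dlk1 was lower with APX3330 than in each saline group. Dlk1 is a Delta-like protein without the DSL domain of Notch ligands. Against saline D27 and saline D48, but not saline D100, the Deltex family ubiquitin ligase Dtx3 was called lower and the nuclear coactivator Maml3 higher. Dlk1 was rare, between 0 and 0.335 CPM with APX3330, 1.28 and 2.48 CPM at saline D27, 2.78 and 3.02 CPM at saline D48, 1.48 and 3.46 CPM at saline D100, and 0.133 and 0.803 CPM in Control. Against Control it was called higher by 1.93 at saline D27 (adjusted p 0.0358), 2.57 at saline D48 (0.00529) and 2.19 at saline D100 (0.0169), calls that were lost without the squamous libraries (folds 1.18, 1.82 and 1.66, adjusted p up to 0.426). Those at saline D27 and saline D100 were also lost without Control replicate 1 or 3, that at saline D27 without saline D27 replicate 2 or 3, that at saline D48 without the pancreatic libraries (2.52, adjusted p 0.0739), and that at saline D100 without saline D100 replicate 3. It was lower with APX3330 by -3.50 against saline D27 (adjusted p 0.0106), by -4.14 against saline D48 (0.00116) and by -3.76 against saline D100 (0.0330). The first 2 calls held under every alternative, and the last was lost without saline D100 replicate 2 or 3 or any APX3330 library (adjusted p up to 0.135). Dtx3 was lower by -0.52 against saline D27 (adjusted p 0.0105), lost without saline D27 replicate 1 (0.0516), and by -0.69 against saline D48 (0.000640), which held under every alternative. Maml3 was higher by 0.82 against saline D27 (adjusted p 0.0143), lost without saline D27 replicate 2 or APX3330 replicate 3 (up to 0.0684), and by 0.58 against saline D48 (0.0327), lost without any saline D48 library, without APX3330 replicate 2 or 3 and without the pancreatic libraries (up to 0.300). Against saline D100 the differences were -0.07 for Dtx3 (adjusted p 0.825) and 0.30 for Maml3 (adjusted p 0.498). Psen2, a catalytic subunit of gamma-secretase, was lower by -0.46 against saline D48 (adjusted p 0.0114), and Dtx1, another Deltex gene, by -1.15 (0.0184). Both were lost without saline D48 replicate 3 and without the pancreatic libraries, and Dtx1 also without APX3330 replicate 1 or 2 (adjusted p up to 0.231 for Psen2 and 0.303 for Dtx1).

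The genes whose pattern over the 15 libraries was most like that of a member were found by the root mean square difference of centred log2 CPM, as a description over libraries that share depth and composition. For Gfi1, whose own SD over the libraries was 0.793 log2 units, Spdef was nearest with a difference of 0.265, and then the sulfotransferase gene Chst4 with 0.282. For Atoh1, with an SD of 0.489, Ramp1 was nearest with 0.205, followed by Creb3l4 with 0.234. For Hes1, with an SD of 0.435, the nearest were Ceacam18 with 0.164 and the tight junction gene Ocln with 0.175. For Jag1, with an SD of 0.381, Dcbld1 and Edrf1 were nearest, both with 0.150. For Notch3, with an SD of 0.329, Htra3 was nearest with 0.141, followed by Cul7 with 0.177. Genes that varied less had nearest neighbours at between 0.109 (Capn15 for Notch1) and 0.225 (Epb41l4a, the second nearest for Jag2).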

How the data were processed

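The authors deposited 1 table of raw counts, whole numbers for each gene. Per the labels' protocols, libraries of total RNA were prepared with a SMARTER mRNA-seq kit, and the submitters' processing notes name the builds GRCm38 and mm10. Which aligner and counter were used, and whether counting used strand, is not given in the sources used here. Total counts were 13548661 to 17919613 per library, and 23552 of 56859 genes had no count. No library looked like a repeat deposit of another of its group, since all pairs within a group differed beyond counting noise. Libraries of different groups were not compared in this way.

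Columns were matched to samples by name and samples grouped by their labels. In R 4.3.3 with edgeR 4.0.16, low genes were removed (filterByExpr), which left 18038, and all 15 libraries were fitted together (TMM, glmQLFit, glmQLFTest) for 10 pairwise contrasts plus an F test across the groups. A call is a Benjamini-Hochberg adjusted p below 0.05 over all tested genes. The SE of a log2 fold change is its size over the square root of F, with 95% intervals. CPM were computed from the deposited counts with TMM-scaled library sizes. Ratios to summed markers were compared on the log2 scale with exact two-sided permutation tests, which with 3 against 3 cannot go below 0.1. Exon lengths and coordinates are from GENCODE M21 (GRCm38) and promoters from RefSeq (GRCm38.p6).

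The members, the gene lists and the tests were chosen with earlier results of these data known. Named were all 10 members, the 3 genes of each pathway list with the smallest F test p, the most abundant markers of each cell type list, and the 2 genes nearest to each member. Exceptions are stated. Alternatives were DESeq2 size factors, no filter, the DESeq2 test (1.42.0), a replicate block, a fit of the compared groups alone, each library left out in turn, and the squamous or pancreatic libraries left out. The fit was tested on simulated counts. limma 3.58.1 was loaded by edgeR, and the plots used matplotlib 3.10.9 and Python 3.11.15.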

Additional observations from a re-analysis of the deposited data

How the results depend on the processing

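Each of the 29 calls on the 10 genes was checked under the alternatives that applied to it. This gave 353 checks, which share fits and libraries and are not independent. No call reversed, 270 checks kept the call and 83 lost it. The 8 calls that held in every check were all against Control. They were Jag1 and Atoh1 with APX3330 and at saline D100, Hes1 at saline D27, and Gfi1 with APX3330, at saline D48 and at saline D100. Signs reversed for uncalled differences only. Hes1 in APX3330 against saline D48 ran from -0.0463 (without APX3330 replicate 3) through -0.000209 (without saline D48 replicate 3) to 0.273 with 1 library left out and was -0.0909 without the pancreatic libraries, and Atoh1 in APX3330 against saline D100 ran from -0.0213 (without APX3330 replicate 1) to 0.405. The numbers of the 10 genes called moved with the libraries used, and the cause was not tested beyond the fewer libraries. Without the squamous libraries, where Control keeps 1 library, fewer of the 10 genes were called with APX3330, at saline D27 and at saline D48 against Control. Fewer were also called for saline D100 against saline D27 and against saline D48, and over the 5 groups. In each of these pairwise comparisons fewer of all genes were called as well. Without the pancreatic libraries, where saline D48 keeps 1 library, fewer of the 10 genes and fewer of all genes were called at saline D48 against Control. The same held for APX3330 against saline D48 and for saline D100 against saline D48. With only the compared groups in the fit, 2 of the 10 genes (from 4) were called for APX3330 against saline D48. Over all genes 2021 of 16693 were called there. For saline D100 against saline D27, 0 of the 10 were called, beside 356 of 16735 over all genes. With no filter, 1 of the 10 (from 0) was called for APX3330 against saline D100, beside 776 of 33307 over all genes. For saline D48 against saline D27 it was 1 (from 0) beside 911, and for saline D100 against saline D27 it was 2 beside 1186. DESeq2 gave 1, 1 and 2 for these 3 comparisons, beside 426 of 17799, 714 of 15868 and 1266 of 15222 over all genes. It gave 4 for saline D100 against saline D48, beside 3083 of 17153. With 1 library left out, the counts ranged from 4 to 6 with APX3330, 3 to 4 at saline D27, 2 to 5 at saline D48 and 4 to 6 at saline D100 against Control. Over all genes, with 18544 to 18751 tested, the calls then ranged from 1469 to 2481 with APX3330 and 1799 to 3322 at saline D27. They ranged from 3550 to 4458 at saline D48 and 2621 to 3508 at saline D100. For APX3330 the calls on the 10 genes ranged from 0 to 3 against saline D27, 2 to 4 against saline D48 and 0 to 0 against saline D100. Over all genes these ranges were 362 to 1890, 2129 to 3209 and 9 to 73. Between saline days the calls on the 10 genes ranged from 0 to 0 for saline D48 against saline D27, 0 to 1 for saline D100 against saline D27 and 1 to 3 for saline D100 against saline D48, and over the 5 groups from 6 to 7. Over all genes the 3 ranges between saline days were 24 to 247, 31 to 788 and 1341 to 1994. Leaving out libraries of a group not compared lost the call in 15 of 261 checks of a call (5 at saline D27 and 3 at saline D48 against Control and 7 for saline D100 against saline D27), reversed none of them and gained 6 others. DESeq2 size factors changed no call, and no setting moved the median of all genes by over 0.1. Replicate numbers did not pair the libraries: deviations of 30 same-numbered pairs correlated between -0.14 and 0.25 (median -0.0147). The replicate block lost the calls of Notch3 at saline D27 (adjusted p 0.0597) and Jag1 at saline D48 (0.0616) against Control and of Jag1 at saline D100 against saline D27 (0.0630), which left 0 calls there. Gfi1 and Jag2 had the fewest counts, from 89 and 97 in a library.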
